A study of Mus musculus with 9 samples.

Results

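The baseline transcriptome of wild-type mouse thyroid was described from the 3 libraries labelled wild type, out of 9 libraries in the series. The libraries were chosen by their genotype label, with earlier results of these data known. The other 6 libraries, labelled Arid2 KO and Smarcb1 KO, belong to a study of 2 subunits of SWI/SNF, a chromatin remodelling complex, and were not used. Each library was made from thyroid tissue that was flash frozen after removal; strain, age and sex, and whether the wild-type mice carry any transgene, are not given in the sources used here. Whether they come from separate animals is not stated, so the spread reported here is that between libraries and may in part be technical. Replicate numbers only name the libraries.

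The thyroid is built of follicles, in which a single layer of follicular epithelial cells surrounds a store of thyroglobulin. Follicular cells take up iodide, attach it to tyrosines of thyroglobulin, and later take the protein back in and digest it to release thyroid hormone, all under the control of thyrotropin. Between the follicles lie the calcitonin-producing C cells, a dense capillary bed, fibroblasts and macrophages, and the parathyroid glands are attached to or embedded in the thyroid lobes. Strap muscle, trachea, fat and thymus are close by at dissection.

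The 3 libraries were nearly equal in depth, with total gene counts of 34045321, 33701524 and 33666251 in replicates 1, 2 and 3. Of 33924 genes in the table, 10718 had no count in any of the 3 libraries, and 13488 reached 1 CPM (the count divided by the library's total and multiplied by 1000000) in all of them. A gene at or above that level in each library counts as detected below. Of the detected genes 12720 are annotated as protein coding. Across detected genes, log2(CPM + 1) had a Spearman correlation of 0.981 between replicates 1 and 2, 0.983 between 1 and 3, and 0.976 between 2 and 3; genes are not independent replicates, and the value describes only how alike the libraries were. The Y-linked genes Ddx3y (63.3, 66.5 and 73.7 CPM) and Eif2s3y (57.3, 76.1 and 82.8 CPM) were detected in all 3 libraries, while Xist, which silences an X chromosome, was at 1.29, 1.28 and 0.772 CPM.

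The 4 marker genes of the tissue behaved differently across the libraries. Tg, which encodes thyroglobulin, stood at 307941, 269705 and 245330 CPM in replicates 1, 2 and 3. Pax8, a transcription factor of follicular cells, stood at 475, 471 and 371 CPM. Both follicular markers were therefore high in each library, and the tissue label held in all 3. Calca, the calcitonin gene of C cells, stood at 2437, 4951 and 1866 CPM. Pth, which encodes parathyroid hormone, reached 1161 CPM in replicate 1 and 4350 CPM in replicate 2, and in replicate 3 it had 1 count (0.0297 CPM). Pth was thus prominent in 2 of the libraries and at the limit of detection in the third.

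Thyroglobulin transcript took a far larger share of the reads than any other. Tg received 27.4% ± 3.16 of all gene counts (mean ± SD, n = 3), with 30.8%, 27.0% and 24.5% in replicates 1, 2 and 3. The differences between libraries were much wider than the counting error: the 95% Wilson interval in replicate 1 ran from 30.779% to 30.810%. The 25 genes with the highest mean CPM together took 34.6% ± 2.36 of the counts, and the 25 that follow Tg took 10.05% of the counts that remain when Tg is left out. Among the counts without Tg, between 1240 and 1348 genes were needed to reach 50% of the total, so beyond Tg the reads were spread broadly.

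After Tg, the genes that received most reads were the mitochondrially encoded mt-Co1 (13863 ± 2164 CPM), mt-Cytb (8849 ± 2274 CPM) and mt-Nd1 (4888 ± 1337 CPM), which encode subunits of the respiratory chain. Other genes of the first 25 were Eef1a1 and Eef2, elongation factors of translation, Cd24a, a surface glycoprotein, and Sparc, a secreted matrix protein. The long noncoding RNA Neat1, the RNA helicase gene Ddx5 and the actin-severing protein gene Gsn were also in this group, as were 3 chaperone genes of the endoplasmic reticulum, Hspa5, Calr and Pdia3. Slc26a7, an anion transporter of follicular cells, was in it too. Many of these genes varied little: Ddx5 stood at 1364, 1368 and 1345 CPM. Calca, Scd1, Pth and Chga had the widest spread of the 25, each with an SD over 50% of its mean. Scd1, the stearoyl-CoA desaturase of fatty acid synthesis, stood at 1614, 1494 and 8272 CPM, and was highest in replicate 3.

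**Figure D1:**
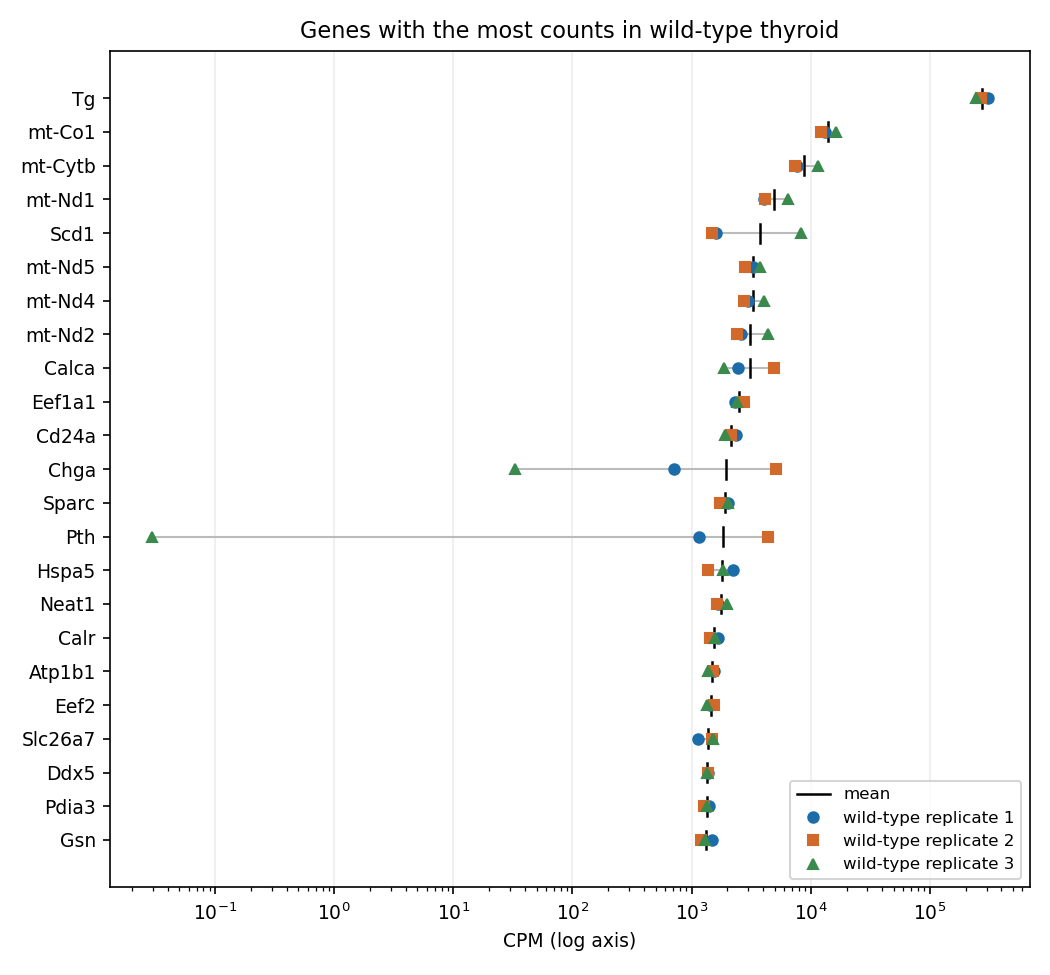
CPM (log axis) of 23 of the 25 genes with the highest mean in wild-type thyroid; points are the 3 libraries, the grey line spans their range and the black bar is the mean. Tg lies near 274325 CPM, most other genes have overlapping points, and Pth, Chga and Scd1 span wide ranges.

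Read counts grow with transcript length, so genes were ranked against each other only by a per-kilobase level: the count per kilobase of annotated exon, scaled to the same sum in each library as CPM. On this scale Tg stood at 124259 ± 19332, followed by mt-Co1 (35918 ± 4903), mt-Cytb (30895 ± 7098), mt-Nd1 (20381 ± 4961) and mt-Nd2 (11996 ± 3850). Tg did not overlap mt-Co1 in any library. Pth (10373 ± 12509), mt-Nd4 (9488 ± 1807), Calca (7337 ± 3833), mt-Nd5 (7255 ± 989) and mt-Nd6 (7249 ± 1139) came next. Of these, mt-Nd4 lay above mt-Nd5 and mt-Nd6 in each library, mt-Nd5 and mt-Nd6 did not differ beyond their spread, and the ranges of Pth and Calca spanned those of the others. Pth and Calca, products of minor cell populations, were the only nuclear genes besides Tg among the first 10. Eef1a1 (4036 ± 324), Cd24a (3340 ± 482), the metallothionein gene Mt2 (3206 ± 1242), the small nucleolar RNA Snord123 (3099 ± 375) and Scd1 (3053 ± 3044) completed the first 15 among genes with an exon length. Of the detected genes 174 had no matched length and could not be ranked, among them the globin gene Hbb-b1 with a mean of 647 CPM. The level of Snord123 per kilobase rests on 49.8 to 63.2 CPM over a very short exon, and it is uncertain because host transcripts cover such genes.

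The mitochondrial genome was read unevenly. Of its 13 protein-coding genes, 7 were detected, and each of these 7 was highest in replicate 3, beside 36.3% of all detected genes. The other 6 had almost no counts: mt-Co2 had 2, 1 and 1 counts, mt-Co3 had 1, 3 and 3, mt-Atp6 had 0, 0 and 2, mt-Atp8 and mt-Nd3 had 1 count in replicate 1 only, and mt-Nd4l had none. These subunits are transcribed from the same strand as mt-Co1, in a common precursor. How reads that match several places were handled is not given in the sources used here, and the 6 genes are treated as not measured. The 13 genes together took 3.47%, 3.25% and 4.75% of counts in replicates 1, 2 and 3. Proteins of the cytosolic ribosome, 82 genes, took 1.44% ± 0.213 of counts, and many have processed pseudogenes with which they share reads, so that share is uncertain too.

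The machinery of hormone synthesis was present in every library, with a steep order of levels. Of 13 genes of iodide handling and hormone synthesis, 11 were detected, and 9 had a mean of at least 10 CPM. Over the 11 detected genes the median SD, as a share of the mean, was 16.5%, beside 10.5% over all detected genes. Iyd, the dehalogenase that recovers iodide from iodotyrosines, stood at 782, 811 and 712 CPM. Slc5a5, the sodium iodide symporter, stood at 377, 556 and 479 CPM, lowest in replicate 1. Per kilobase, Iyd (1901 ± 173) lay above Slc5a5 (642 ± 107) in each library, and the values of the pair did not overlap. The exon lengths come from another annotation than the counts.

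On the apical side, where iodide leaves the cell for the follicle lumen, the transporter genes were very unequal. Slc26a7 stood at 1141, 1491 and 1509 CPM. Slc26a4, the gene of pendrin, the classical apical iodide exchanger, had 1, 2 and 3 counts in replicates 1, 2 and 3. Those counts are at or under the limit of 3 counts (0.0881 to 0.0891 CPM), so pendrin transcript was at the limit of detection at this depth. Slc5a8, a monocarboxylate transporter, stood at 147, 119 and 114 CPM and Ano1, a calcium-gated anion channel, at 32.0, 28.8 and 40.2 CPM. The potassium channel genes Kcnq1 (3.64, 4.72 and 4.22 CPM) and Kcne2 (0.352, 0.475 and 0.149 CPM) were low.

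Hydrogen peroxide for iodination is made by the dual oxidases, each with a maturation factor. Duox2 stood at 70.1, 59.5 and 50.3 CPM, with its partner Duoxa2 at 27.5, 28.8 and 20.7 CPM. Duox1 stood at 3.17, 4.84 and 8.50 CPM and Duoxa1 at 11.4, 20.2 and 22.1 CPM. Per kilobase Duox2 (35.7 ± 7.29) was above Duox1 (4.14 ± 1.92) in every library. Duox1 and Duoxa1 were lowest in replicate 1 and highest in replicate 3, and Duox2 was highest in replicate 1 and lowest in replicate 3. The pairs of genes lie next to each other in opposite orientation, and whether the counting used strand is not stated, so reads at their shared ends are uncertain.

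All 5 thyroid transcription factors of the list were detected. Nkx2-1, the homeodomain factor of thyroid and lung, stood at 317, 354 and 296 CPM, and Foxe1, a forkhead factor, at 233, 290 and 201 CPM. Hhex, a homeobox factor of early thyroid, stood at 90.2, 83.1 and 83.8 CPM, and Glis3, a zinc finger factor, at 38.7, 29.0 and 34.4 CPM. Per kilobase the order was Nkx2-1 (455 ± 45.8), Foxe1 (346 ± 65.8), Pax8 (291 ± 47.8), Hhex (68.1 ± 5.79) and Glis3 (15.5 ± 2.69), and the levels of Foxe1 and Pax8 overlapped between libraries. The summed level of the list ran from 986 CPM in replicate 3 to 1227 CPM in replicate 2. Of the 5 genes 3, Pax8, Nkx2-1 and Foxe1, were lowest in replicate 3, like Tg, while Hhex and Glis3 were lowest in replicate 2. Over all detected genes 29.3% were lowest in replicate 3. With TMM factors it was 3 of the 5, beside 33.7%, and with totals without Tg 4 of the 5, beside 47.5%.

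Thyroglobulin retrieval and hormone release rest on endocytosis, lysosomal proteases and transporters. The lysosomal protease genes Ctsd (1013, 1005 and 1178 CPM), Ctsb (899, 877 and 1023 CPM) and Ctsl (811, 735 and 760 CPM) varied little. Lrp2, the endocytic receptor megalin, stood at 139, 167 and 115 CPM. Slc16a10, a transporter of aromatic amino acids and thyroid hormone, stood at 23.7, 29.2 and 24.2 CPM. Dio1, the deiodinase that converts thyroxine to the active hormone, stood at 709, 638 and 388 CPM, lowest in replicate 3. Dio2, another activating deiodinase and one that brown fat also uses, stood at 7.02, 7.80 and 57.2 CPM, and was high in replicate 3 alone, the library with the highest levels of the brown fat genes given further down. Of the 16 genes of the list, 15 were in the table and 14 were detected, and the summed level differed by 1.03-fold between libraries.

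Genes of the thyrotropin receptor pathway were present in every library. Tshr, the thyrotropin receptor, stood at 75.2, 78.8 and 69.1 CPM. Adcy6, an adenylyl cyclase, stood at 203, 194 and 179 CPM, and Prkar1a, the regulatory subunit of protein kinase A, at 284, 328 and 300 CPM. All 15 genes of the list were detected and the median coefficient of variation (CV, SD divided by mean) over them was 7.72%, beside 10.5% over all detected genes and 8.24% over those with a mean from 30 to 100 CPM. Gnas, the stimulatory G protein, was the member that varied most, with 24.6, 66.5 and 20.3 CPM. Gnas overlaps other annotated transcripts of its imprinted locus and its count is uncertain. The thyroid hormone receptor genes were present as well, with Thra at 53.1, 57.5 and 47.6 CPM and Thrb at 28.9, 16.1 and 22.2 CPM.

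**Figure D2:**
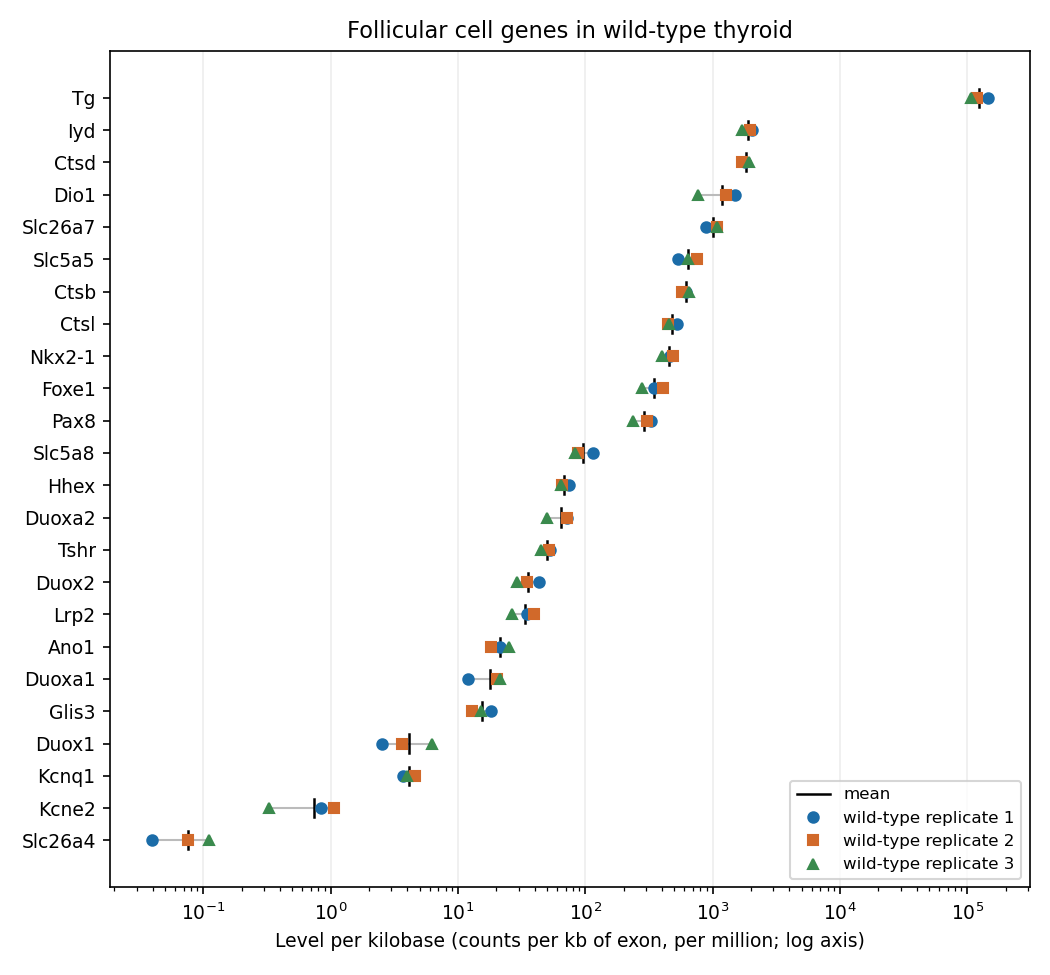
Level per kilobase of annotated exon (log axis) of 24 follicular cell genes, with points for the 3 libraries, a grey line for their range and a black bar for the mean. Tg stands apart at 124259, the means of Iyd, Ctsd, Dio1 and Slc26a7 lie between 1016 and 1901, and Slc26a4 is at the limit of detection.

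Genes of protein folding and of peroxide defence, both heavily used in a gland that exports an iodinated protein, were prominent. All 20 chaperones and stress regulators of the secretory pathway were detected. Hspa5, the lumenal Hsp70 chaperone, stood at 2226, 1383 and 1839 CPM, Hsp90b1 at 1320, 850 and 1061 CPM, and Pdia4, a disulphide isomerase, at 533, 309 and 414 CPM. Of the 20 genes, 15 were highest in replicate 1 and 17 lowest in replicate 2. Over all detected genes 17.7% were highest in replicate 1 and 22.0% lowest in replicate 2. These shares depend on the scaling, because Tg takes a different part of each library: with TMM factors 28.5% and 32.7%, and with totals without Tg 31.7% and 25.1%. The chaperone counts moved little, to 15 and 18 with TMM factors and to 16 and 16 without Tg. Calr (1657, 1429 and 1581 CPM) and P4hb (868, 850 and 851 CPM) varied less, and the summed level of the list was 11783, 9178 and 10780 CPM. Among selenoproteins, 15 of 18 were in the table and all 15 were detected. Gpx3, the secreted glutathione peroxidase, stood at 201, 204 and 271 CPM, Gpx1 at 170, 190 and 252 CPM and Gpx4 at 267, 314 and 378 CPM. Sepp1, selenoprotein P, stood at 322, 298 and 415 CPM. Of the 15, 9 were highest in replicate 3 (8 with either other scaling), beside 36.3% of all detected genes (36.4% with TMM factors and 25.1% with totals without Tg).

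The cell types that reside in the thyroid were read from marker lists. In bulk tissue, fewer cells of a type and less RNA per cell cannot be told apart, so a level below is that of the list and not a cell number. All 15 general epithelial genes were detected, with summed levels of 2401, 2651 and 2354 CPM. Cdh16, a cadherin of thyroid and kidney epithelium, stood at 631, 637 and 577 CPM, and Epcam, an epithelial adhesion molecule, at 352, 410 and 349 CPM. Cdh1, the epithelial cadherin, stood at 307, 342 and 318 CPM. The simple keratin genes Krt8 (204, 239 and 238 CPM), Krt7 (203, 242 and 173 CPM) and Krt18 (136, 156 and 141 CPM) were well above Krt5 (5.199, 6.14 and 5.58 CPM), the basal keratin of stratified epithelium. Krt14, its partner, stood at 0.294, 1.19 and 1.19 CPM. Of the 10 squamous epithelium genes, which include both, 5 were detected, Krt5 among them. The others were Perp (77.9, 77.9 and 73.4 CPM), Trp63 (31.7, 27.8 and 25.8 CPM), Sfn (6.08, 7.48 and 11.3 CPM) and Krt15 (4.20, 8.22 and 5.41 CPM).

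Among stromal lists the fibroblast genes were the most even between libraries, and the vascular lists varied more. All 12 fibroblast genes were detected, with summed levels of 3182, 3002 and 3269 CPM and a median CV of 6.93%. Col3a1, the collagen of reticular fibres, stood at 1158, 1101 and 1212 CPM, Dcn, the proteoglycan decorin, at 644, 613 and 575 CPM, and Col1a1 at 231, 220 and 254 CPM. Pi16, a marker of adventitial fibroblasts, varied most, with 69.2, 29.4 and 54.5 CPM. All 15 blood endothelial genes were detected. Kdr (108, 100 and 145 CPM) and Flt1 (105, 116 and 161 CPM), receptors of vascular endothelial growth factor, and Plvap (77.8, 80.0 and 87.6 CPM), a protein of fenestrated capillaries, were highest in replicate 3. In all, 14 of the 15 were highest in that library under all 3 scalings, beside 36.3% of all detected genes (36.4% with TMM factors and 25.1% without Tg), and the summed level was 732, 710 and 967 CPM. Vegfa, the ligand, stood at 892, 1011 and 962 CPM. Lymphatic genes were lower, with Lyve1 at 19.6, 5.07 and 16.7 CPM and Mmrn1 at 17.1, 3.06 and 9.33 CPM, both lowest in replicate 2. Genes of smooth muscle and pericytes summed to 604, 727 and 794 CPM, led by the pericyte gene Rgs5 (206, 279 and 321 CPM).

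Among immune lists, those of macrophages and of dendritic cells with MHC class II had the highest sums. All 13 macrophage genes were detected, with summed levels of 477, 405 and 458 CPM, and all 9 genes of dendritic cells and MHC class II, with 503, 595 and 419 CPM. Csf1r, the receptor of the macrophage growth factor, stood at 58.5, 57.4 and 63.2 CPM and the complement gene C1qa at 52.1, 48.7 and 51.4 CPM. Cd163, a scavenger receptor, was lowest in replicate 2 (26.0, 11.7 and 26.5 CPM). Cd74, the invariant chain of MHC class II, stood at 211, 255 and 170 CPM, and H2-Aa, an MHC class II chain, at 132, 123 and 89.8 CPM. Lymphocyte genes were mostly low. Of 12 T and NK cell genes only Lck was detected (10.5, 15.8 and 7.04 CPM), while Cd3e stood at 0.382, 0.297 and 0.208 CPM and Cd8a at 0.676, 0.0297 and 0.178 CPM. Rag1, the recombinase of developing lymphocytes, had 0 counts in each of the 3 libraries, which allows up to 0.0881 to 0.0891 CPM, and the thymocyte genes Dntt, Ptcra and Themis stood at 0.0593 CPM or less. Kit, the stem cell factor receptor, stood at 77.9, 87.8 and 74.4 CPM with the mast cell protease genes Cpa3 (1.41, 1.28 and 1.19 CPM) and Cma1 (1.03, 0.979 and 0.980 CPM) low. No neutrophil gene of 8 was detected.

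**Figure D3:**
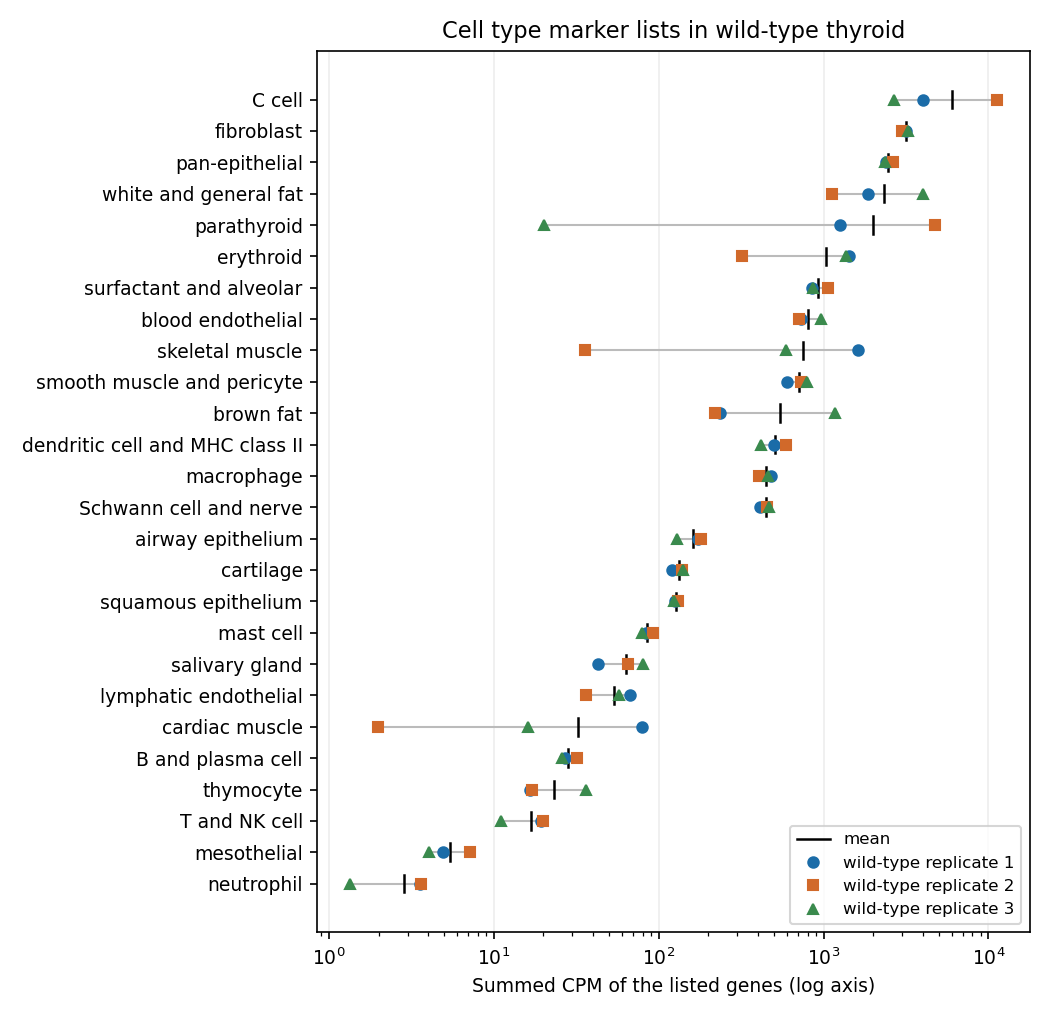
Summed CPM (log axis) of 26 cell type marker lists; points are the 3 wild-type libraries, the grey line spans their range and the black bar is the mean. Fibroblast, epithelial and macrophage lists have close points, and parathyroid, skeletal muscle, cardiac muscle, erythroid and fat lists are spread widely.

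C cells were represented in every library, and most strongly in replicate 2. Of 18 C cell genes 17 were detected, and 15 of the 17 were highest in replicate 2 under all 3 scalings, beside 46.0% of all detected genes (35.1% with TMM factors and 43.1% with totals without Tg). Besides Calca, the receptor gene Gfra4 stood at 27.96, 69.2 and 23.8 CPM and its signalling partner Ret at 51.3, 69.8 and 55.7 CPM. Scg2, a granin, stood at 384, 613 and 323 CPM, the prohormone convertase gene Pcsk2 at 96.7, 127 and 77.3 CPM, and Sst, the somatostatin gene, at 4.76, 10.2 and 6.33 CPM. Chga, chromogranin A, which C cells and parathyroid cells both store, followed another pattern, with 712, 5093 and 32.9 CPM. Without Chga the list summed to 3316, 6248 and 2651 CPM, a ratio of 2.36 between the highest and the lowest library, and with it the ratio was 4.22. Calcb, the near relative of Calca, stood at 0.734, 0.682 and 0.535 CPM. Calcitonin and the neuropeptide CGRP are made from Calca by alternative splicing, and a count per gene does not separate them.

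Parathyroid genes set replicate 3 apart. Gcm2, the factor that specifies the gland, stood at 7.64 and 42.5 CPM in replicates 1 and 2 and had 0 counts in replicate 3, which allows up to 0.0891 CPM. Kl, the coreceptor klotho, stood at 29.5, 167 and 0.802 CPM, and Casr, the calcium-sensing receptor, at 27.8, 112 and 8.14 CPM. The 6 genes summed to 1251, 4754 and 20.2 CPM. Every member was highest in replicate 2 and lowest in replicate 3. Over all detected genes 46.0% were highest in replicate 2 and 29.3% lowest in replicate 3 (35.1% and 33.7% with TMM factors, 43.1% and 47.5% with totals without Tg). Of the 6, 2 were detected in all 3 libraries, Casr among them. Other genes with the same order were Rhcg, an ammonium transporter (15.04, 97.2 and 0 CPM), Sycp2l (7.49, 36.1 and 0 CPM) and Pcyt1b, of phosphatidylcholine synthesis (8.31, 35.1 and 0.594 CPM). Vdr, the vitamin D receptor, stood at 39.9, 83.9 and 24.8 CPM.

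The upstream sequence of the marker genes is given to place these transcripts in the genome. RefSeq promoter entries (build GRCm38.p6) were used for Pax8, Calca and Pth, and Tg has no entry in the table used. The 250 bases before each annotated start are shown 5′ to 3′ on the gene's own strand, with matches on either strand in capitals to TATAAA (the TATA box), TGACG (the core of a cAMP response element) and ATGCGGGT (the site of GCM factors).
Pax8, chr2:24475600-24475849, minus strand: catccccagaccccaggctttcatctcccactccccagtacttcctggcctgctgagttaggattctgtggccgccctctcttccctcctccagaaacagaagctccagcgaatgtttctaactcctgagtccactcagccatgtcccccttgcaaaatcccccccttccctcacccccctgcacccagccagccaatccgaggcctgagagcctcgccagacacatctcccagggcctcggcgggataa
Calca, chr7:114636358-114636607, minus strand: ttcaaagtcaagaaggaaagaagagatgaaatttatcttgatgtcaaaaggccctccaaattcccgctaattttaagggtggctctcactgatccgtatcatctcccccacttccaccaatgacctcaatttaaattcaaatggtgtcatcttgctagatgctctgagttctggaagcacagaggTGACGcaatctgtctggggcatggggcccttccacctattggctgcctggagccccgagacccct
Pth, chr7:113388574-113388823, minus strand: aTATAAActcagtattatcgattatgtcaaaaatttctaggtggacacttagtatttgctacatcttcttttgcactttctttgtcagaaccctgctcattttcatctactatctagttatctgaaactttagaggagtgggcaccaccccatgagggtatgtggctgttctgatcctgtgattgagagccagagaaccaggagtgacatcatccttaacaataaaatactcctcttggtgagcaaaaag
The Calca sequence held a TGACG, at position -65 counted from the start, and the Pth sequence held a TATAAA, at position -249, while no match lay in the Pax8 window. Of 32851 promoter windows of the same length, 17.8% hold TGACG, 12.4% hold TATAAA and 0.207% hold ATGCGGGT. The last was in neither the Pth, Gcm2 nor Casr window. A match in a window is a description of its letters only.

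Genes of tissues that border the thyroid stood at unequal levels in the libraries. Skeletal muscle genes were highest in replicate 1 and lowest in replicate 2 for all 12 detected members of 15, under all 3 scalings. Over all detected genes 17.7% were highest in replicate 1 and 22.0% lowest in replicate 2 (28.5% and 32.7% with TMM factors, 31.7% and 25.1% without Tg). The summed level was 1625, 35.5 and 590 CPM. Myh4, a fast myosin, stood at 399, 3.20 and 137 CPM, Atp2a1, the calcium pump of fast muscle, at 180, 1.22 and 38.3 CPM, and Ckm, the muscle creatine kinase, at 102, 1.13 and 39.8 CPM. Actc1, an actin gene of heart and developing muscle, followed them with 78.2, 0.386 and 15.03 CPM, while the heart gene Myh6 stood at 0.147, 0.0890 and 0.119 CPM. Myh13, a myosin of specialised fast muscles of the head and larynx, was high in replicate 1 alone (30.4, 0.178 and 0.0594 CPM). Ckmt2, the mitochondrial creatine kinase of muscle, showed a wide step too, with 71.6, 0.564 and 3.95 CPM.

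Fat genes were highest in replicate 3. The general fat list, all 11 members detected, summed to 1874, 1128 and 4022 CPM, with 9 of the 11 highest in replicate 3 and 10 lowest in replicate 2 under all 3 scalings. Over all detected genes 36.3% were highest in replicate 3 and 22.0% lowest in replicate 2 (36.4% and 32.7% with TMM factors, 25.1% and 25.1% without Tg). Fabp4, the fatty acid binding protein of adipocytes, stood at 455, 337 and 1593 CPM, and Adipoq, the adiponectin gene, at 99.0, 60.6 and 167 CPM. Ucp1, the uncoupling protein that defines brown fat, stood at 74.99, 89.1 and 692 CPM, Cidea at 26.8, 32.3 and 148 CPM and Otop1 at 5.85, 3.98 and 31.4 CPM. The brown fat list summed to 237, 221 and 1175 CPM, with 7 of its 8 detected members highest in replicate 3 under the same 3 scalings. Enzymes of fatty acid synthesis and its supply outside the lists had the same order of libraries: Fasn, the fatty acid synthase, stood at 555, 496 and 2505 CPM, Gpd1, glycerol phosphate dehydrogenase, at 111, 84.8 and 489 CPM and the lipase relative Pnpla3 at 21.1, 17.6 and 103 CPM. The mitochondrially encoded genes, also highest in this library, are described above, and the part of fat in their level was not tested.

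Red cell genes were low in replicate 2. Hbb-b1, a beta globin, stood at 836, 223 and 882 CPM, and Alas2, the first enzyme of haem synthesis in red cells, at 57.2, 7.21 and 50.1 CPM. Hba-a1 stood at 456, 71.6 and 319 CPM and Hba-a2 at 0.235, 7.66 and 28.9 CPM. Hba-a1 and Hba-a2 are near-identical copies whose reads the counting could divide or drop, so both are uncertain, and the different order of Hba-a2 is to be read with that limit. The erythroid list summed to 1430, 321 and 1368 CPM.

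Several defining genes of other neighbours were near or at 0, while other members of their lists were detected. The cartilage matrix genes Acan and Col2a1 stood at 0.0881 CPM or less, while Sox9, a factor shared by many epithelia, stood at 103, 121 and 119 CPM. Of 9 cartilage genes 4 were detected, Sox9 among them. The others were Col9a1 (14.04, 10.2 and 15.7 CPM), Lect1 (1.76, 2.49 and 2.47 CPM) and Hapln1 (1.23, 2.97 and 1.87 CPM). The lung surfactant gene Sftpc stood at 0.323, 1.04 and 0.505 CPM and the club cell gene Scgb1a1 at 0.117, 0.682 and 0.475 CPM. Other genes known from alveolar cells were well expressed: Abca3, a lipid transporter, stood at 366, 312 and 274 CPM, Napsa, an aspartic protease, at 193, 277 and 209 CPM, and Ager, the receptor of glycated proteins, at 287, 473 and 384 CPM. Ager lies among closely packed genes and its count is uncertain where they overlap. Bpifa1, a secreted protein of upper airway, stood at 141, 101 and 71.9 CPM with Bpifb1 at 0.0891 CPM or less. Of 12 airway genes 5 were detected, Bpifa1 among them. The others were Tekt1 (10.02, 34.8 and 29.7 CPM), Cyp2f2 (13.9, 31.2 and 18.8 CPM), Scgb3a2 (3.11, 7.06 and 2.64 CPM) and Ltf (1.44, 3.62 and 3.30 CPM). In nerve, the myelin gene Mbp stood at 44.4, 50.1 and 54.1 CPM. The salivary genes Prol1, Smr3a and Dcpp2 had 0 counts in all 3 libraries. Of the 8 genes of that list 3 were detected: Aqp5 (21.1, 32.0 and 34.6 CPM), Amy1 (11.5, 10.1 and 30.2 CPM) and Bhlha15 (10.4, 23.2 and 15.7 CPM).

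The spread between libraries was small for most genes. The median CV of the detected genes was 10.5%, 47.5% of them had a CV under 10%, 79.5% under 20%, and 2.80% had a CV over 50%. The common biological coefficient of variation estimated by edgeR, which takes counting error out, was 21.2% over 15414 genes. It is a common value fitted to all of them and lies above the median CV of 10.5%, so it does not give the spread of a typical gene. Low genes varied more. For genes with a mean from 1 to 3 CPM the median CV was 19.3%, of which counting error alone accounts for a CV of about 12.2%, and from 30 to 100 CPM the median CV was 8.24% against a counting CV of 2.41%. Above 300 CPM the median CV was 10.3%, far over the counting CV of 0.836%, so at high levels depth does not limit the comparison of these libraries.

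Among 9778 genes with a mean of at least 10 CPM, 107 (1.09%) had a ratio of at least 4 between the highest and the lowest library, with 0.1 CPM added to both. Of these 107, 33 were members of the cell type lists. How many of the 9778 genes are on those lists is not given here, so 33 is a description only. The lowest library was replicate 2 for 65 of the 107, replicate 3 for 27 and replicate 1 for 15. Over all detected genes the lowest was replicate 2 for 22.0%, replicate 3 for 29.3% and replicate 1 for 48.7%. With TMM factors these shares were 32.7%, 33.7% and 33.7%. Without replicate 2 the number of genes with a ratio of at least 4 was 41, without replicate 3 it was 59, and without replicate 1 it was 89. The genes of wide spread outside the lists included Spp1, the secreted phosphoprotein osteopontin (6.40, 57.1 and 0.713 CPM), and Tcap (39.2, 0.564 and 11.8 CPM), Casq1 (43.9, 0.712 and 12.7 CPM) and Mybpc1 (28.6, 0.415 and 10.7 CPM), 3 proteins of the muscle fibre.

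**Figure D4:**
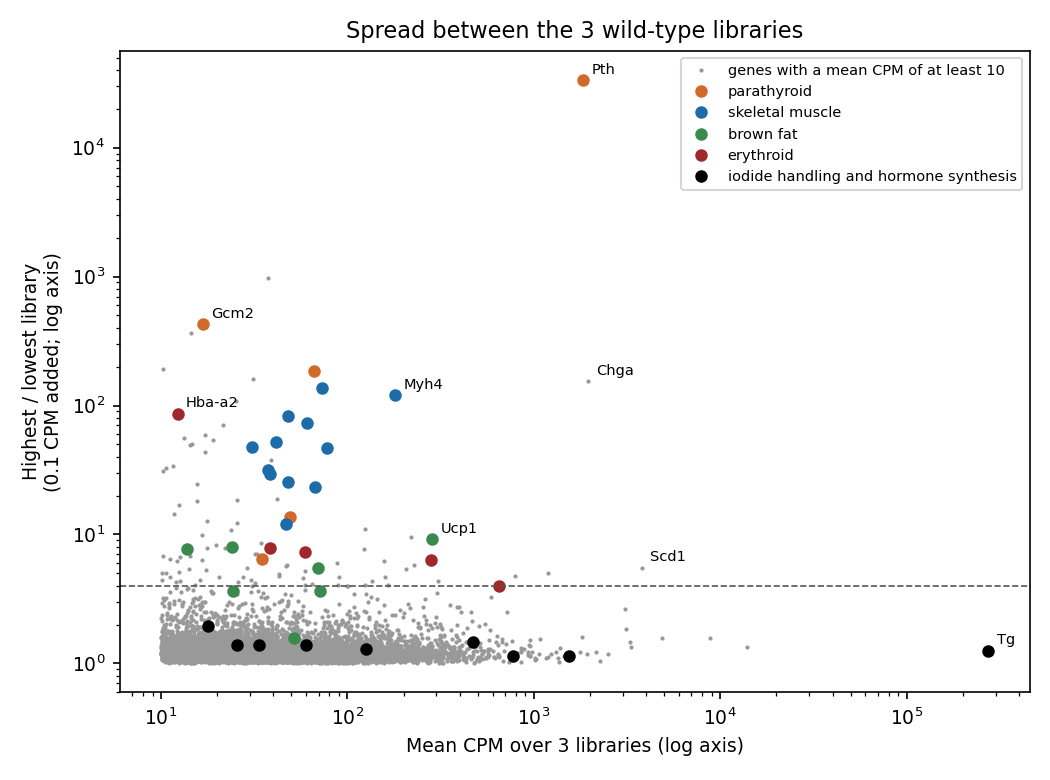
Ratio of the highest to the lowest library (0.1 CPM added; log axis) against mean CPM (log axis) for the 9778 genes with a mean of at least 10 CPM, with members of 5 lists in colour and a dashed line at a ratio of 4. Hormone synthesis genes lie below the line, with Duoxa1 at 1.94. Parathyroid, muscle, brown fat and red cell genes lie above the line, apart from 3 brown fat genes (Cox8b at 3.62, Cox7a1 at 3.66 and Ppargc1a at 1.56) and Hbb-b1 at 3.96.

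Each library had its own set of genes that stood apart. In replicate 1, 36 genes of a mean of at least 10 CPM were at least 2-fold above both other libraries (0.368%), 10 of them on the skeletal muscle list, and 15 were at least 2-fold below (0.153%). The genes below were led by Hba-a2, Amdhd1, an enzyme of histidine breakdown (1.09, 29.1 and 16.5 CPM), Pttg1, the securin of mitosis (6.05, 28.8 and 26.5 CPM), and Kitl, the ligand of Kit (23.6, 67.2 and 87.3 CPM). In replicate 2, 41 genes were at least 2-fold above (0.419%), 5 of them parathyroid and 3 C cell genes, and 60 were at least 2-fold below (0.614%), 12 of them muscle and 4 erythroid genes. Tnmd, a membrane protein of tendon (9.49, 104 and 2.67 CPM), Lbp, the lipopolysaccharide binding protein (37.2, 289 and 41.4 CPM), and Akr1c13 (19.2, 101 and 5.26 CPM) were among those above. In replicate 3, 102 genes were at least 2-fold above (1.04%), 6 of them on the brown fat list and 5 on the general fat list, and 21 were at least 2-fold below (0.215%), 4 of them parathyroid genes.

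**Figure D5:**
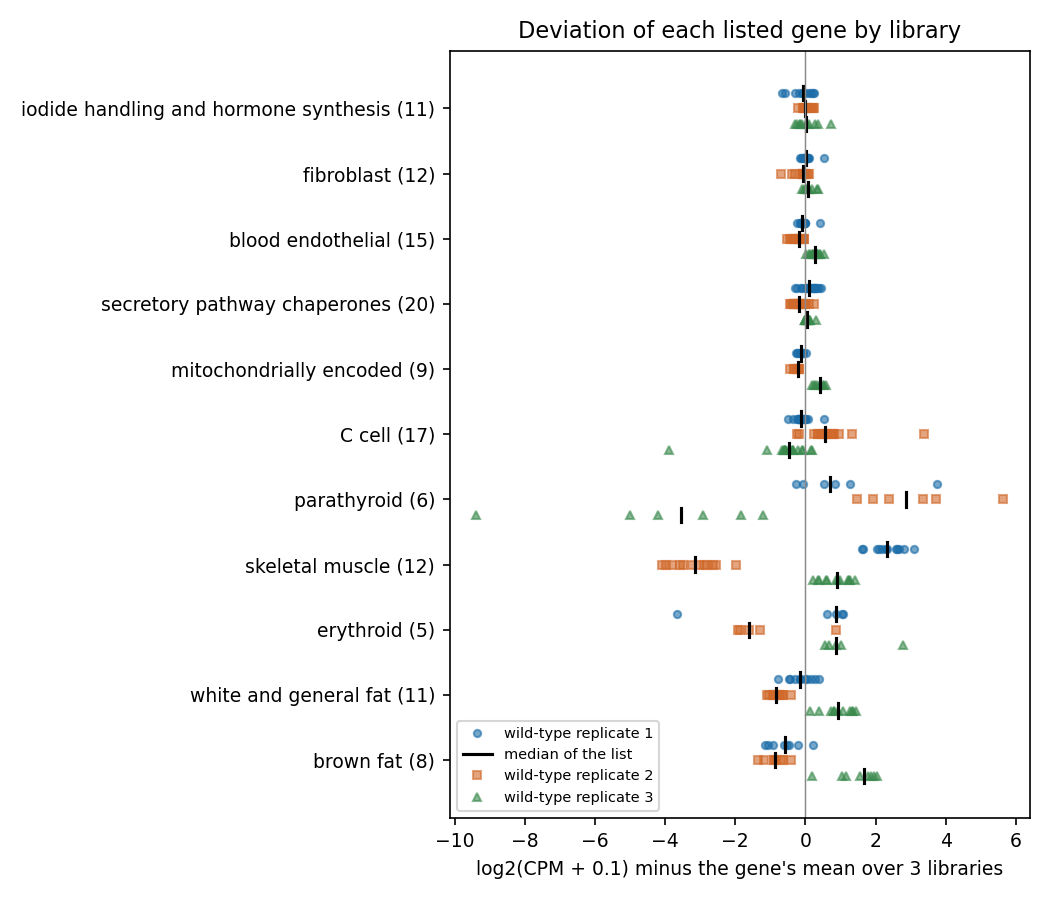
Deviation of each listed gene from its own mean over the 3 libraries, as log2(CPM + 0.1), for genes with a mean of at least 1 CPM; points are genes, coloured by library, black bars are medians and the number of genes is in brackets. Most hormone synthesis and fibroblast genes lie nearer to 0 than the parathyroid and muscle genes, with Duox1, Duoxa1 and Pi16 farther out. Parathyroid genes fall far to the left in replicate 3, muscle genes in replicate 2, and fat genes lie to the right in replicate 3.

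At the other end, some genes were the same in each library to within their counting error. Cyp2j6, a cytochrome P450, stood at 60.7, 60.7 and 60.7 CPM, the ubiquitin ligase gene Ubr2 at 88.9, 89.0 and 88.6 CPM and Lpp, a focal adhesion protein, at 143, 142 and 142 CPM. Gpr108 (89.5, 89.4 and 89.7 CPM), Ikzf2 (20.6, 20.5 and 20.6 CPM), Fkbp7 (14.4, 14.4 and 14.3 CPM) and Sft2d2 (312, 310 and 311 CPM) were as close. With 9778 genes and 3 libraries, the closest values are by their choice closer than counting error gives, and they carry no statement on the stability of these genes elsewhere.

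The cell cycle and immediate early lists had median CVs of 19.3% and 17.3%, beside 10.5% over all detected genes. The circadian clock list was near the latter, at 10.8%. Only 10 of the 22 cell cycle genes and 13 of the 22 immediate early genes had a mean of at least 10 CPM. Over all detected genes the median CV was 15.5% at a mean from 3 to 10 CPM and 10.4% from 10 to 30 CPM. Among 22 cell cycle genes 21 were detected, and Mki67, a marker of dividing cells, stood at 13.4, 14.8 and 23.6 CPM, with Cdk1, the mitotic kinase, at 4.26, 4.21 and 6.09 CPM. Of the 21, 18 were highest in replicate 3, and 19 with TMM factors, beside 36.3% and 36.4% of all detected genes. Of 22 immediate early genes, which rise within minutes of stress or handling, 18 were detected, with summed levels of 571, 570 and 701 CPM. Klf6 (118, 125 and 178 CPM), Jund (82.9, 104 and 87.6 CPM) and Fosl2 (76.0, 71.3 and 90.9 CPM) received most reads, while Fos stood at 7.93, 4.33 and 5.88 CPM, Egr1 at 17.4, 11.9 and 22.1 CPM and Fosb at 0.323, 0.178 and 0.297 CPM. Of 16 circadian clock genes all were detected, with Dbp at 93.0, 119 and 88.1 CPM, Nr1d1 at 191, 161 and 142 CPM and Arntl, which cycles in opposition to them, at 12.4, 7.39 and 6.59 CPM. Per1 differed more, with 51.0, 67.0 and 119 CPM.

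The subunits of SWI/SNF, the complex the series is about, were mostly detected in the wild-type tissue. Of 29 subunit genes 28 were in the table and 26 were detected, with a median CV of 8.02%, about that of all detected genes with a mean from 30 to 100 CPM (8.24%). Actb, the actin shared with the cytoskeleton, was among the members that varied more (536, 699 and 787 CPM). The ATPase genes Smarca4 and Smarca2 stood at 86.8, 96.8 and 88.7 CPM and at 108, 111 and 104 CPM. Smarcb1, a core subunit, stood at 63.8, 74.8 and 69.4 CPM and Arid2, of the PBAF form, at 66.7, 78.2 and 67.9 CPM. Both were highest in replicate 2, as were 16 of the 26 detected subunits and 46.0% of all detected genes. With TMM factors it was 11 of the 26, beside 35.1%, and with totals without Tg 11 of the 26, beside 43.1%. Pbrm1, another PBAF subunit, stood at 107, 108 and 108 CPM, and Arid1a, of the BAF form, at 113, 112 and 98.5 CPM. Actl6b and Dpf1, the subunits of the neuronal complex, stood at 1.28 CPM or less.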

How the data were processed

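Per the labels' protocols, TRIzol was used to extract RNA from flash-frozen thyroids, and the TruSeq RNA kit of Illumina to prepare libraries. The values are the raw gene counts deposited by the authors, which are not normalized. Per the submitters' processing notes, the tools were STAR 2.4, HTSeq 0.6.1 and DESeq2 and the build was mm9, with no role or order given; the annotation, the strand setting and the handling of reads that match several places are not given in the sources used here. Only the 3 wild-type columns of 9 were read.

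CPM is the count over the library's total. Levels per kilobase use the exon length of GENCODE M21 (GRCm38), matched by symbol or synonym for 98.7% of detected genes; the counting used another build, so lengths are approximate and no GENCODE coordinates are printed. Values are mean ± SD over 3 libraries. No comparison between groups and no test was made. The common dispersion came from edgeR 4.0.16 in R 4.3.3 with TMM scaling, filterByExpr and an intercept only. It and the count of ratios over 4 were also run on simulated data with known answers. There every gene had the same dispersion, so these runs cannot show how either measure behaves where dispersion differs between genes. No library is a duplicate: the chi-square divided by its degrees of freedom was 47.6 to 87.8 for the 3 pairs. Without molecular identifiers, reads can be PCR copies, so intervals and limits cover counting error only.

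The 44 gene lists hold 592 entries, 585 of them in the table, and were chosen with earlier results of these data known, as was the choice of these libraries. Named genes are the 4 markers, the 25 highest by CPM and 15 highest per kilobase, up to 5 members of each list by level and 2 by spread, the 20 genes of widest and 10 of narrowest spread, and the 8 farthest above and below in each library at a mean of at least 10 CPM. Other list members are named for their known role, after their values were seen. Some genes are not reported here. Alternatives were TMM factors, DESeq2 1.42.0 size factors, totals without Tg, other minimums, another added value, omission of cell type genes and of each library.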

Additional observations from a re-analysis of the deposited data

How the results depend on the processing

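The share of counts taken by Tg was 25.8% to 28.9% with 1 library left out, and that of the 25 most abundant genes 33.3% to 35.6%; with Tg left out of the counts, the 25 genes that follow it took 10.05%. The number of detected genes ran from 13504 with TMM or DESeq2 scaling to 15472 with 10 counts in all libraries as the minimum, and from 13619 to 13699 with 1 library left out. The common biological coefficient of variation lay between 19.8% and 24.7% under the scalings, filters and libraries tried. The number of genes with a ratio of at least 4 was 100 to 128 under the other scalings and with 1 CPM added, 74 without the cell type genes and 335 with a mean of at least 1 CPM as the minimum. With 1 library left out it ran from 41 to 89. The ratio of the highest to the lowest library of the 44 list sums had a median of 1.25, 1.27 with TMM factors and 1.27 with totals without Tg, and 9 lists had a ratio of at least 2 under each of the 3 scalings. A count of 3 is 0.0881 to 0.0891 CPM, and transcript under that level could be missed at this depth. Median log2 deviations of detected genes by class of GC content ran from -0.08 to 0.10, and by class of exon length from -0.13 to 0.08, the lowest being that of genes under 1000 bases in replicate 1.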

Other observations

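Of 39 Hox genes, 13 were detected and 13 had 0 counts in all 3 libraries. The detected ones belong to groups 2 to 9, and Hoxb9 (10.8, 4.96 and 4.60 CPM), Hoxb4 (4.58, 5.07 and 5.198 CPM), Hoxb3 (3.82, 3.32 and 4.10 CPM) and Hoxa3 (3.67, 3.09 and 3.12 CPM), the last a regulator of pharyngeal organ formation, had the most counts. Hox clusters hold many antisense transcripts, and without a stated strand setting these counts are uncertain.

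Of 48 nuclear receptor genes 34 were detected. The clock repressor genes Nr1d2 (187, 178 and 214 CPM) and Nr1d1 led by counts, followed by the glucocorticoid receptor gene Nr3c1 (113, 136 and 139 CPM). Esrrb, an orphan receptor best known from embryonic stem cells, stood at 34.2, 34.2 and 22.5 CPM. Esr1, the oestrogen receptor, stood at 5.38, 4.93 and 14.6 CPM and Pparg, the factor of fat cells, at 15.6, 11.8 and 50.6 CPM, both highest in replicate 3, the library highest in fat genes. Hnf4a and Hnf4g, of liver and gut, had 0 counts.

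All 12 interferon response genes were detected, with Gbp2 at 16.9, 17.2 and 18.3 CPM and Isg15 at 4.05, 3.41 and 4.51 CPM.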
